A study of Homo sapiens with 28 samples.

Results

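The 280 regions described here were open in AN3CA cells with wild-type ARID1A or ARID1B, stayed among the strongest peaks when ARID1A carried a mutated ARID domain, and did not do so reliably when ARID1A lacked IDR1. They are called the DBDmut-kept regions below. AN3CA is an established human endometrial carcinoma cell line, and its open chromatin was profiled by ATAC-seq, which marks accessible DNA with a transposase. Each of 28 deposited peak lists was cut to its 19433 most significant peaks on chromosomes 1 to 22 and X, overlapping peaks were merged, and the 32972 regions found in at least 2 lists were kept. A library called a region when any of its 19433 peaks overlapped it. A region was gained when all 4 wild-type libraries and none of the 4 Empty.Vector libraries called it. The DBDmut-kept regions are the gained regions that both ARID1A.DBDmut libraries called and that at most 1 of the 2 ARID1A.delIDR1 libraries called. They make up 14.7% of the 1905 gained regions and 0.849% of all regions. The other gained regions were 234 kept by ARID1A.delIDR1 and not by both ARID1A.DBDmut libraries (the delIDR1-kept regions), 484 kept by both constructs, and 907 kept in full by neither. The number of DBDmut-kept regions depends on the length of the lists, with 3803 in the whole lists and 42 in the 9716 strongest peaks of each list.

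ARID1A and ARID1B are alternative subunits of the canonical BAF complex (cBAF), a remodeler that slides and evicts nucleosomes and keeps many enhancers accessible. Both proteins have a long N-terminal part of low sequence complexity that is intrinsically disordered, an ARID domain that binds DNA, and a C-terminal part through which they are built into the complex. ARID1A is among the most often mutated genes in endometrial carcinoma. The title of the series concerns condensation of cBAF governed by these proteins, and the classes of gained regions separate 2 changes to ARID1A, one to its ARID domain and one to a disordered region.

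Per the labels, ARID1A.DBDmut has a mutated ARID domain, ARID1A.delIDR1 and ARID1A.CBR are truncations, and ARID1A.DDX4 is a hybrid that holds the disordered region of DDX4. ARID1A_Y42S, ARID1A_AQGscramC1C2, ARID1B_A457_G461del, ARID1B_Block13del and ARID1B_Block9del are named as in the titles, and ARID1B.S320_G327del is labelled mutant M2. ARID1A.WT and ARID1B.WT are the wild-type proteins, and Empty.Vector is the control. There are 4 libraries of Empty.Vector and 2 of each of the 12 constructs. The labels name neither a promoter, a clone nor the level of each construct, and they do not say whether replicates were separate cultures. The p-value of the F statistic thus measures only the spread between these libraries, which may be technical. The exact tests over constructs measure the spread among construct means, each of a few such libraries.

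The rule used 12 libraries, and 16 libraries of 8 constructs took no part in it. Of these, 10 libraries of 5 constructs (the 2 ARID1A and 3 ARID1B constructs named as in the titles) carry a genotype label that names the empty vector, and they were grouped by title. Date codes in the peak names sort the libraries into 6 groups, called runs here. The codes alone do not show whether they date an experiment, a sequencing run or a later step. Runs A and B each hold 1 library of ARID1A.DBDmut, ARID1A.delIDR1, ARID1A.CBR, ARID1A.WT and Empty.Vector. Run C holds ARID1B.S320_G327del, ARID1B.WT and the other Empty.Vector libraries, run D ARID1A.DDX4, run F ARID1A_AQGscramC1C2, and run E the 4 constructs left. For ARID1A.DDX4 and ARID1A_AQGscramC1C2 the run and the construct cannot be told apart, and runs D, E and F hold no control. The deposited lists have 19489 to 76589 peaks, the files give no read counts, and the depth is unknown. A call says that a site is among the first 19433 peaks of its own list. That length is the whole list of ARID1A_Y42S replicate 2 on these chromosomes and most of the 21094 peaks of ARID1A.DDX4 replicate 1. ARID1A.WT replicate 1 has 76530, so a call means a high rank in the long lists only. A weaker site in every cell cannot be told apart from a site that is open in fewer cells.

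No DBDmut-kept region was absent from the wild-type or ARID1A.DBDmut top lists, and none was called in an Empty.Vector top list, because the rule requires it. The ARID1A.delIDR1 libraries called 47 and 56 of the 280 regions (16.8% and 20%). The region at chr7:1731188-1732197 (build hg19 throughout, positions counted from 1) was the one with the best mean rank in the wild-type lists, and it shows the shape of the data. Its peak ranked 17297 and 12599 in the ARID1A.DBDmut lists, 14063 and 22015 in the ARID1A.delIDR1 lists, 4441 and 4800 in the ARID1A.WT lists and 2273 and 2132 in the ARID1B.WT lists, where 1 is the most significant peak. It was in no whole Empty.Vector list, and its second ARID1A.delIDR1 rank alone lay past 19433.

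For these 280 regions the name "not kept by delIDR1" is mostly one of rank, not of loss. In the whole deposited lists, 271 of the 280 regions had a peak in both ARID1A.delIDR1 libraries, 5 had one in a single library, and 4 regions (1.43%) had none, against a background of 2.10% of all gained regions. The whole ARID1A.delIDR1 lists thus held 96.8% and 98.6% of the DBDmut-kept regions, beside 93.9% and 97.7% of all gained regions. The whole lists of Empty.Vector replicates 1 to 4 held 18.9%, 20%, 4.29% and 6.79% of them, the last 2 being of run C, beside 22.6%, 25.8%, 4.09% and 7.72% of all gained regions. Of the 280 regions, 217 (77.5%) were in no whole Empty.Vector list, beside 72.0% of all gained regions and 68.4% of the delIDR1-kept regions, and 9 were in all 4.

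**Figure D1:**
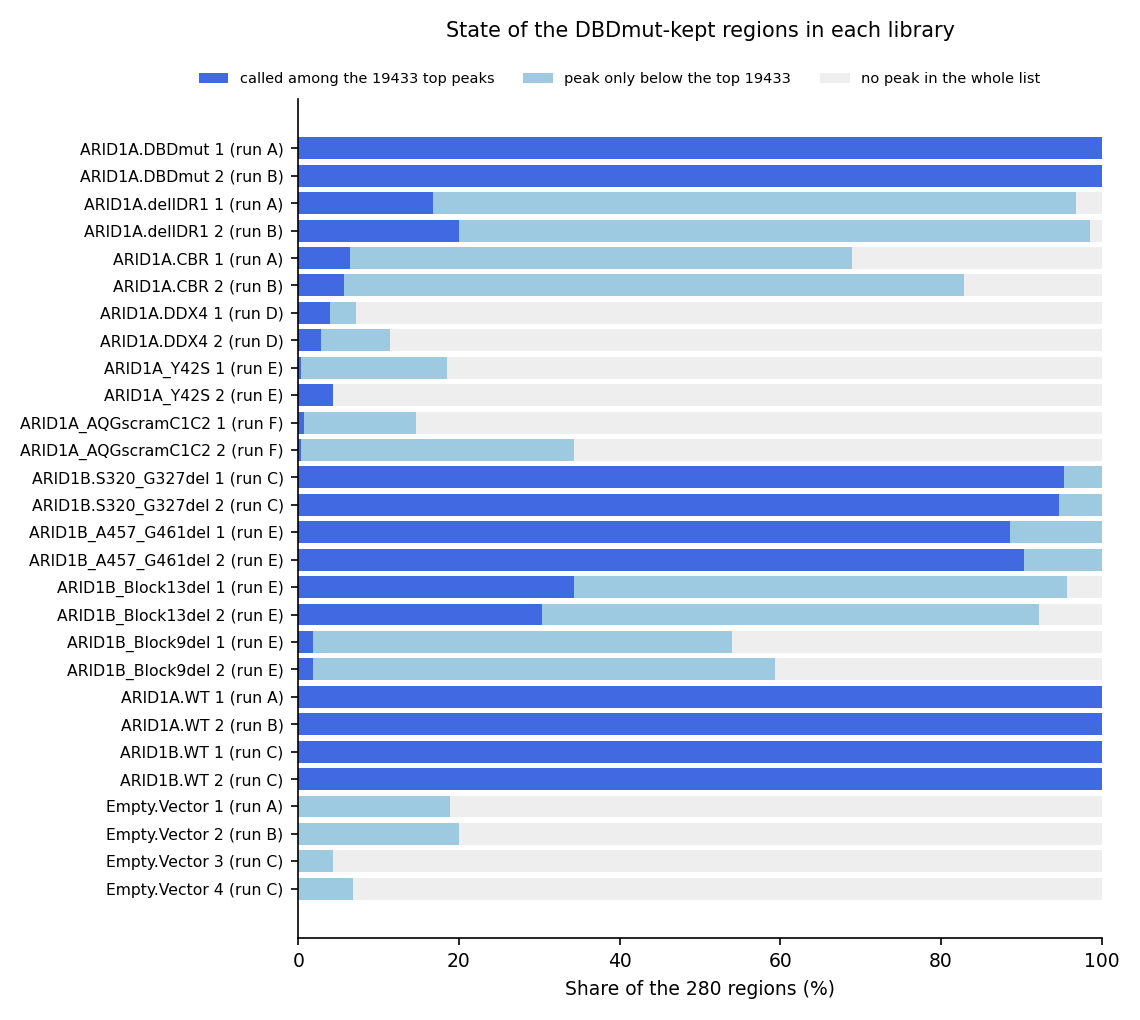
State of the 280 DBDmut-kept regions in each of the 28 libraries: the x axis gives the share of regions (%) called among the 19433 top peaks (dark), with a peak only further down the list (light) or with no peak (grey). The rule fixed the bars of ARID1A.DBDmut, the wild types and the top peaks of Empty.Vector at 100 or 0, and limits those of ARID1A.delIDR1, whose bars are mostly light; the ARID1B.S320_G327del bars outside the rule are 95.4% and 94.6% dark.

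Ranks within the lists chose these regions and are given as a description. Rank in a list of one length is no measure of change against a list of another length. Over the 280 regions, the mean rank in the 2 ARID1A.DBDmut lists had a median of 15432 (quartiles 13648 and 16756), so most lay in the lower part of the top 19433. In the ARID1A.delIDR1 lists the median was 23075 over the 271 regions with a peak in both (quartiles 20109 and 28894). In the 4 wild-type lists it was 10902, beside 10551 for the delIDR1-kept regions, 7902 for those kept by both constructs and 12554 for those kept by neither. The DBDmut-kept and delIDR1-kept regions were thus of like strength in the wild-type lists, and both were weaker there than the regions kept by both constructs.

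The gap between ARID1A.delIDR1 and ARID1A.DBDmut mean ranks was above 0 in 270 of 271 regions, as the rule all but fixes. Its median was 9307.5 places, it exceeded 5000 places in 200 regions (73.8%), and it was under 2000 places in 24. At the threshold, 28 regions had their weaker ARID1A.delIDR1 rank within 1000 places of 19433, while 150 had it more than 5000 places further down. Just inside the rule lay chr2:173647397-173648432, with ranks of 14756 and 13893 in the ARID1A.DBDmut lists and 19451 and 16159 in the ARID1A.delIDR1 lists. Next to it was chr5:90447624-90448188, at 15405 and 14325 for ARID1A.DBDmut and 19472 and 13160 for ARID1A.delIDR1. Just outside lay chr1:159885531-159886621, at 14197 and 13978 for ARID1A.DBDmut and 17327 and 19396 for ARID1A.delIDR1, and chr10:75666265-75667072, at 8534 and 8858 against 19336 and 16235. The regions on either side of the threshold are thus set apart by their place in a single list.

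**Figure D2:**
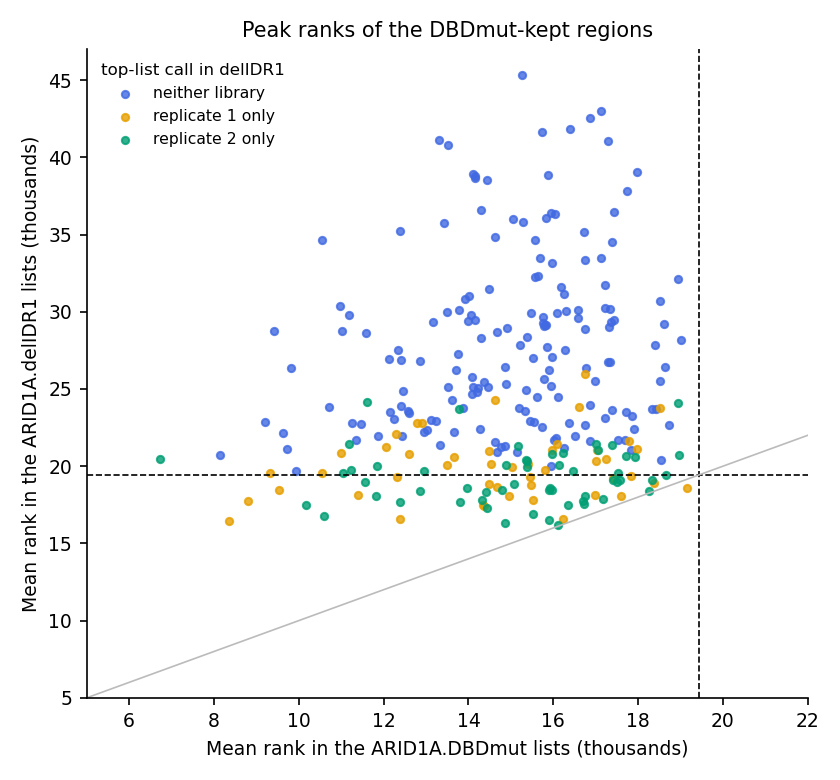
Mean peak rank (axes count in units of 1000 places) in the 2 ARID1A.DBDmut lists (x axis) and the 2 ARID1A.delIDR1 lists (y axis) for the 271 DBDmut-kept regions with a peak in both ARID1A.delIDR1 lists, coloured by the ARID1A.delIDR1 library that called them. Dashed lines mark rank 19433 and the grey line marks equal ranks; 270 points lie above it, as the choice of regions all but requires, and the blue points reach 45331.

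The preference was also described across runs, with sites chosen in one run and scored in the other. Gained regions were chosen with the ARID1A.DBDmut and ARID1A.delIDR1 libraries of one run, and the libraries of the other run were scored. Of 321 regions that ARID1A.DBDmut called and ARID1A.delIDR1 did not in run A, ARID1A.DBDmut called 72.6% in run B (95% Wilson interval 67.5% to 77.2%) and ARID1A.delIDR1 called 21.8% (17.6% to 26.6%). Over all 1905 gained regions the same run B libraries called 45.3% with ARID1A.DBDmut and 45.9% with ARID1A.delIDR1. Of 270 regions chosen in run B, ARID1A.DBDmut called 83.0% in run A (78.0% to 87.0%) and ARID1A.delIDR1 called 20.4% (15.998% to 25.6%), beside 48.6% and 43.5% of all gained regions. The difference in the scored run was 50.8 and 62.6 percentage points, 56.7 ± 8.35 in the mean (SD, n = 2 directions). The sign was turned for regions chosen the opposite way, with -53.3 and -40.6 points. With 2 libraries a construct no exact permutation test on both sides can go below p = 0.333, so none was made. In these lists of equal length the difference kept its sign in both directions, while about 1 site in 5 was called by ARID1A.delIDR1 in the scored run. The size of the difference depended on the direction under some settings. It was 43.6 and 71.3 points with a 50% overlap and 25.1 and 78.2 points in the whole lists, where the regions chosen the opposite way gave -67.5 and 3.22 points. The wild-type and Empty.Vector libraries that define a gain are the same in both directions. The scored libraries are themselves libraries of the rule. The regions that ARID1A.DBDmut called in the scored run, 233 of 321 and 224 of 270, are all DBDmut-kept regions. These shares thus describe agreement between replicates and are no independent support for the classes.

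**Figure D3:**
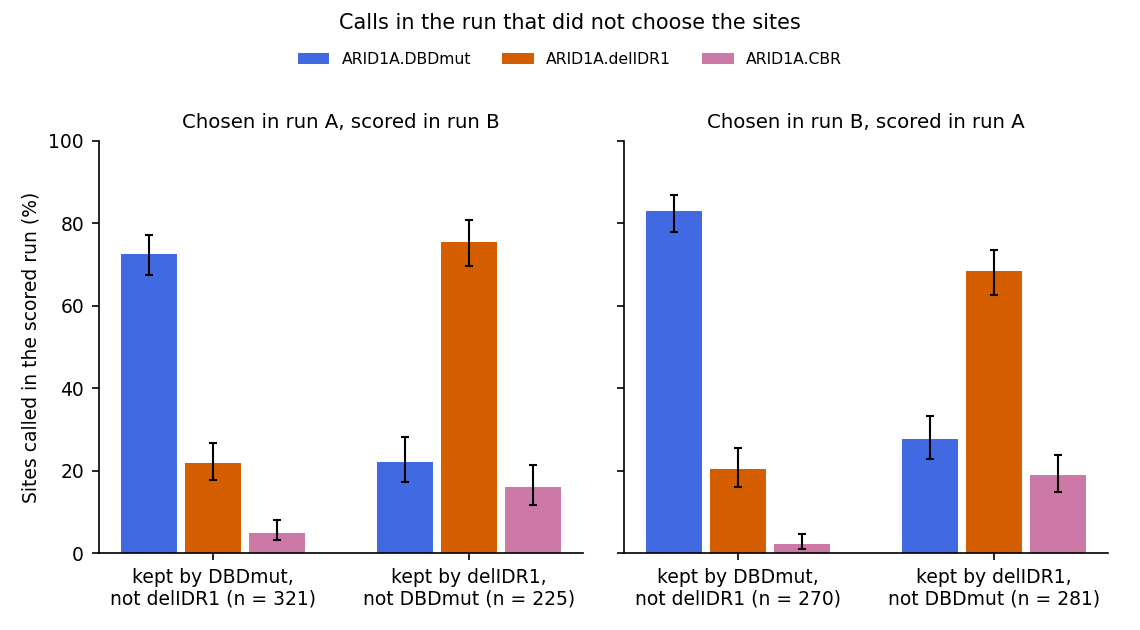
Share of regions (%) called in the run that did not choose them, by ARID1A.DBDmut, ARID1A.delIDR1 and ARID1A.CBR, with 95% Wilson intervals that cover counting error only. Regions chosen for ARID1A.DBDmut were called by it at 72.6% and 83.0% and by ARID1A.delIDR1 at 21.8% and 20.4%, and regions chosen for ARID1A.delIDR1 show the reverse.

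The 8 constructs outside the rule fell into 3 ranges on the DBDmut-kept regions. ARID1B.S320_G327del called 267 and 265 of 280 regions, 95% ± 0.505 (SD, n = 2), and ARID1B_A457_G461del called 248 and 253, 89.5% ± 1.26 (SD, n = 2). ARID1B_Block13del lay between, with 96 and 85 regions, 32.3% ± 2.78 (SD, n = 2). The other 5 constructs called few. ARID1A.CBR called 18 and 16 regions, 6.07% ± 0.505 (SD, n = 2), and ARID1A.DDX4 called 11 and 8, 3.39% ± 0.758 (SD, n = 2). ARID1A_Y42S called 1 and 12, ARID1A_AQGscramC1C2 called 2 and 1, and ARID1B_Block9del called 5 in each library. The 12 come from the ARID1A_Y42S list that was not cut. The Empty.Vector libraries called 0 of 280, which the rule fixed. The ARID1B deletions kept the same order over the gained regions as a whole, of which ARID1B.S320_G327del called 94.6%, ARID1B_A457_G461del 81.9%, ARID1B_Block13del 31.0% and ARID1B_Block9del 3.44%. Of the ARID1A variants, ARID1A.CBR called 19.3% of all gained regions, ARID1A.DDX4 7.24%, ARID1A_Y42S 4.49% and ARID1A_AQGscramC1C2 2.44%. ARID1A.CBR thus lay apart from the other low constructs there, and the 3 ranges do not hold for it. Intervals for a share of the 280 regions reach at most 5.53 points to either side and cover counting error only. Constructs differed far more than their libraries did (permutation test of the F statistic over 16 libraries, 100000 permutations, F = 1442, p = 4e-05, adjusted p = 0.00012 over 3 tests). Without the 10 libraries of disagreeing labels 6 libraries of 3 constructs remained, and the test did not pass (F = 20932, exact p = 0.0667, the smallest they allow). Replicates of a construct outside the rule share a run, except those of ARID1A.CBR, so most of this spread cannot be parted from runs. Within run E, which holds 4 of the constructs, the shares still ran from 89.5% for ARID1B_A457_G461del to 1.79% for ARID1B_Block9del.

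The ARID1B deletions as a group called 54.6% ± 45.2 of the DBDmut-kept regions and the ARID1A variants outside the rule called 3.08% ± 2.32 (SD, n = 4 constructs each). Over all gained regions the same groups called 52.7% ± 42.8 and 8.37% ± 7.56, a contrast in the same direction. The difference of 51.6 points did not pass an exact permutation test over constructs (p = 0.114 on both sides, 0.171 when adjusted over 3 tests, with 0.0286 the smallest possible p). It passed with peaks ranked by fold in place of −log10 p-value (54.7 points, exact p = 0.0286, adjusted p = 0.0429). Without the 10 libraries of disagreeing labels, which leaves 1 ARID1B deletion and 2 ARID1A variants, the difference was 91.8 points and the smallest p is 0.333. The groups overlap, since ARID1B_Block9del lies at 1.79%, below ARID1A.CBR and ARID1A.DDX4. Within run E the ARID1B deletions called 89.5%, 32.3% and 1.79%, and ARID1A_Y42S called 2.32% ± 2.78 (SD, n = 2).

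In terms of single regions, both ARID1B.S320_G327del libraries called 256 of the 280 (91.4%), the same share as the background of 91.4% of all gained regions. Both ARID1B_A457_G461del libraries called 235 (83.9%), above a background of 76.0%, and both ARID1B_Block13del libraries called 61 (21.8%), beside 19.9%. Both ARID1A.CBR libraries called 12 of 280 (4.29%), under a background of 16.5%, and both ARID1A.DDX4 libraries called 3 (1.07%), under 4.09%. Both ARID1B_Block9del libraries called 2 (0.714%), beside 1.57%. No region was called by both libraries of ARID1A_Y42S or of ARID1A_AQGscramC1C2, where the backgrounds were 1.68% and 1.52%. The background includes the 484 regions kept by both constructs, which are stronger in the wild-type lists. It also includes the 907 regions kept by neither, a larger class that is weaker there. In mean share per library, ARID1B_A457_G461del and ARID1B_Block13del called more of the 484 and less of the 907 than of the DBDmut-kept regions. The background is thus not matched to the DBDmut-kept regions in strength.

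A single pattern covered more regions than all others together. Both libraries of ARID1B.S320_G327del and of ARID1B_A457_G461del, and both of no other construct outside the rule, called 154 regions. In 53 more, both ARID1B_Block13del libraries joined them. Another 34 regions were called by both libraries of ARID1B.S320_G327del alone, and 14 by both of ARID1B_A457_G461del alone. How often these exact patterns occurred over all gained regions was not counted, so they are not read as a trait of the DBDmut-kept regions. With every library counted, 245 of the 280 regions (87.5%) were called by no library of the 4 ARID1A variants outside the rule, beside 64.1% of the delIDR1-kept regions and 73.6% of all gained regions. Single libraries of these variants called 0.357% to 6.43% of the DBDmut-kept regions and 0.110% to 2.54% of the regions kept by neither construct. Few calls by these variants are thus not particular to the DBDmut-kept regions. Both libraries of both these ARID1B deletions and no library of those ARID1A variants called 193 regions (68.9%), beside 48.3% of the delIDR1-kept regions and 51.3% of all gained regions.

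The number of calling libraries among the 16 outside the rule was 4 for 101 regions, 6 for 63 and 5 for 51. For the 234 delIDR1-kept regions the same numbers were also the most common, with 68, 50 and 45 regions. It was 0 for 1 region, chr10:45476583-45477446, which ranked 12248 and 12574 in the ARID1A.DBDmut lists and had a peak in both ARID1B.S320_G327del lists at 22527 and 21798. At the other end, 11 libraries called chr6:2021239-2022548 and chr11:121762316-121763948, and 10 called chr3:149299075-149300166 and chr9:19104644-19105509. These 4 widely called regions were in 3 or 4 whole Empty.Vector lists, so they had peaks in the control cells too, further down the lists.

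The DBDmut-kept regions were then set against the delIDR1-kept regions, which mirror them, in the libraries that chose neither. Over the 8 constructs the mean difference was -1.21 points (exact sign-flip permutation test over constructs on both sides, p = 0.773, also 0.773 when adjusted over 3 tests). The smallest p this test allows is 0.00781. Without ARID1A.CBR the mean difference was 1.38 points, above 0, so its sign rests on that construct, and without the 10 libraries of disagreeing labels it was -7.17 points over 3 constructs. The p does not show that the classes behave alike, since the constructs pulled in opposite directions.

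ARID1A.CBR had the largest class difference of the 8 constructs. It called 6.07% ± 0.505 of the DBDmut-kept regions and 25.4% ± 1.51 of the delIDR1-kept regions (SD, n = 2 each), a difference of -20.1 points in run A and -18.6 in run B. Its share of all gained regions, 19.3% ± 0.297 (SD, n = 2), lay between the classes, further from the DBDmut-kept regions. The difference was many times the spread between the libraries. Runs A and B also hold the libraries that chose the classes, so the comparison was repeated with ARID1A.CBR scored in the run that had not chosen. ARID1A.CBR then called 4.98% of the regions chosen for ARID1A.DBDmut and 16% of those chosen for ARID1A.delIDR1 in run B, and 2.22% and 18.9% in run A, a mean difference of -13.8 ± 3.98 points (SD, n = 2). In the whole lists ARID1A.CBR held 68.9% and 82.9% of the DBDmut-kept regions, beside 65.6% and 80.1% of all gained regions and 90.8% ± 8.76 of the delIDR1-kept regions (SD, n = 2). There the DBDmut-kept regions were near the background and the delIDR1-kept regions above it. ARID1A.CBR and ARID1A.delIDR1 are both labelled truncations of ARID1A, and ARID1A.DBDmut is not. Whether this bears on the class difference was not tested.

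In 3 of the 4 ARID1B deletions the mean class difference was above 0, by unlike amounts. ARID1B_A457_G461del called 89.5% ± 1.26 of the DBDmut-kept regions and 80.6% ± 0.907 of the delIDR1-kept regions (SD, n = 2 each), a difference of 8.66 and 9.16 points in its 2 libraries. ARID1B_Block13del differed by 2.23 and 6.85 points and ARID1B.S320_G327del by 1.34 and 1.05 points. ARID1B_Block9del, near 0 in both classes, differed by -0.778 points in both libraries. The ARID1A variants ARID1A.DDX4, ARID1A_Y42S and ARID1A_AQGscramC1C2 called under 5% of either class in the mean, with differences of -0.667 ± 1.06, -2.17 ± 0.0583 and -1.39 ± 0.654 points (SD, n = 2 each).

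Grouped by protein, the class difference averaged 3.47 ± 4.24 points in the ARID1B deletions, above 0 in 3 of 4, and -5.89 ± 8.995 points in the ARID1A variants, below 0 in 4 of 4 (SD, n = 4 constructs each). This contrast of 9.36 points was chosen after the values were seen and did not pass an exact permutation test (p = 0.0571 on both sides, 0.114 when adjusted over 4 tests), though it passed with peaks ranked by fold (9.21 points, exact p = 0.0286, adjusted p = 0.0381). Without ARID1A.CBR, whose libraries come from the runs that chose the classes, the contrast was 4.87 points (exact permutation test, p = 0.143, adjusted p = 0.229).

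**Figure D4:**
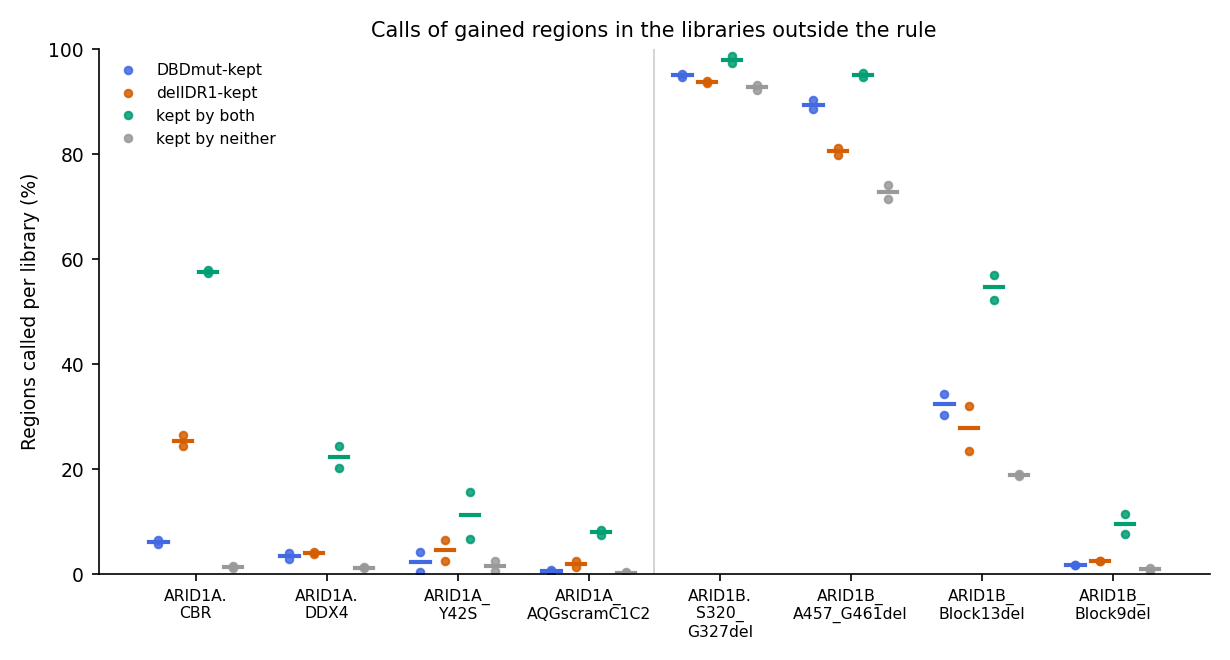
Share of regions (%) that each library outside the rule called, for the DBDmut-kept regions and the other 3 classes of gained regions; points are libraries and bars are means of 2. In ARID1A.CBR the DBDmut-kept regions lie at 6.43% and 5.71% against a mean of 25.4% for the delIDR1-kept regions, while in ARID1B_A457_G461del they lie above them.

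The other 2 classes framed these values. Of the regions kept by both constructs, ARID1A.CBR called 57.6% ± 0.292, ARID1B_Block13del 54.6% ± 3.36 and ARID1A.DDX4 22.3% ± 2.92 (SD, n = 2 each). Of the regions kept by neither, the same constructs called 1.38% ± 0.234, 18.9% ± 0.234 and 1.21% ± 0.156 (SD, n = 2 each). The DBDmut-kept regions lay between them in every one of the 3, nearer to the regions kept by neither.

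The DBDmut-kept regions were not alike in how far ARID1A.delIDR1 left them. Neither ARID1A.delIDR1 library called 177 of them (63.2%), replicate 1 alone called 47 and replicate 2 alone called 56. ARID1A.CBR libraries called 3 and 2 of the 177 (1.69% and 1.13%), 3 and 3 of the 47 (6.38% in each) and 12 and 11 of the 56 (21.4% and 19.6%). Of all gained regions they called 19.5% and 19.1%, near the shares of the 56. ARID1B_Block13del called near the same share of all 3 subgroups, at 33.3% and 28.8% of the 177, 36.2% and 34.0% of the 47, and 35.7% and 32.1% of the 56. Its libraries called 32.5% and 29.6% of all gained regions. The median of the mean wild-type rank was also close in the 3 subgroups, at 10906 for the 177, 10926 for the 47 and 10695 for the 56. These subgroups rest on ARID1A.delIDR1 calls that the rule used, from the runs that also hold the ARID1A.CBR libraries, and were not tested.

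The 10 regions with the best mean rank in the wild-type lists lay on 7 chromosomes. Besides the region of chromosome 7 given above, chr7:47759471-47760612 ranked 8901 and 9530 with ARID1A.DBDmut and 24124 and 21564 with ARID1A.delIDR1. It was the one of the 10 that both ARID1B_Block9del libraries called (ranks 17100 and 17066), and it was in 2 whole Empty.Vector lists. The third, chr5:141595374-141596147, ranked 17002 and 14957 with ARID1A.DBDmut and 30782 and 35585 with ARID1A.delIDR1, and had no peak in either whole ARID1A.CBR list. The fourth, chr1:94244976-94245953, was ranked higher by ARID1A.DBDmut than most others, at 8294 and 8010, against 20483 and 21010 by ARID1A.delIDR1.

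A narrow region of 563 bp at chr1:169911458-169912020 had the widest gap of the 10. Its ranks were 15422 and 18845 with ARID1A.DBDmut and 42932 and 43043 with ARID1A.delIDR1. The authors' fold enrichment over the caller's background was 8.07 and 7.15 in the ARID1A.DBDmut lists, 3.67 and 4.81 in the ARID1A.delIDR1 lists, 9.10 and 8.24 in the ARID1A.WT lists and 10.5 and 10.9 in the ARID1B.WT lists. Neither whole ARID1A.CBR list nor any whole Empty.Vector list held it. In both ARID1A.delIDR1 libraries its fold was thus lower than in either library of the ARID domain mutant.

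Of the rest of the 10, chr7:98180735-98181469 ranked 12383 and 17994 with ARID1A.DBDmut and 24620 and 22929 with ARID1A.delIDR1, and 1 region on chromosome 8 ranked 15604 and 15941 against 28765 and 22470. In 3 others a single ARID1A.delIDR1 library fell short. The region chr15:101655707-101656864 ranked 17229 and 18717 with ARID1A.DBDmut and 16447 and 25733 with ARID1A.delIDR1, and chr3:194084894-194086219 ranked 10065 and 12418 against 25666 and 13796. The remaining one, on chromosome 2, is given above as a region at the threshold. Both libraries of ARID1B.S320_G327del and of ARID1B_A457_G461del called all 10.

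The 4 regions with no peak in either whole ARID1A.delIDR1 list had mean ranks from 8265 to 14710 in the wild-type lists. The best of them, chr5:125812967-125814017, ranked 13916 and 16820 with ARID1A.DBDmut, 2606 and 2908 with ARID1B.S320_G327del and 7387 and 4117 with ARID1B_A457_G461del. The others were chr12:12992717-12993363, at 16617 and 19223 with ARID1A.DBDmut, chr7:33289953-33290787, at 16990 and 15167, and chr5:77248194-77249365, at 19323 and 17826. No whole list of ARID1A.CBR, ARID1A.DDX4, ARID1A_Y42S, ARID1A_AQGscramC1C2 or Empty.Vector held any of the 4. In chr5:77248194-77249365 the 2 ARID1B deletions parted, with ranks of 43363 and 38972 in the ARID1B.S320_G327del lists and 19388 and 17599 in the ARID1B_A457_G461del lists.

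Position and width were not used by the rule. The DBDmut-kept regions had a median width of 1011 bp (quartiles 812 and 1261, range 410 to 2973), beside 961 bp for the delIDR1-kept regions and 974 bp for all gained regions. The nearest other gained region was at a median of 179 kb, and 94 regions (33.6%) had one within 100 kb, beside 175 kb and 36.0% for all gained regions. Another region of their own class lay within 100 kb of 29 DBDmut-kept regions (10.4%) and of 15 delIDR1-kept regions (6.41%). The share was 16.1% for the regions kept by both constructs and 20.7% for those kept by neither, which are larger classes. The nearest of the 9922 regions called in all 28 libraries was at a median of 71.4 kb from DBDmut-kept regions, 51.2 kb from delIDR1-kept regions and 60.9 kb from all gained regions. Neighbouring regions are not independent, and these figures were not tested.

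Chromosome 5 held 45 of the DBDmut-kept regions (16.1%), beside 10.7% of the delIDR1-kept regions, 11.97% of all gained regions and 6.75% of all regions. Chromosome 7 held 31 (11.1%), beside 10 delIDR1-kept regions (4.27%) and 9.29% of all gained regions. Chromosome 19 held 1 (0.357%), beside 9 delIDR1-kept regions (3.85%), 1.52% of all gained regions and 4.82% of all regions. Chromosomes 21 and X held none, and all gained regions had 5 and 7 there. On both chromosome 5 and chromosome 7 the gained regions as a whole also held a larger share than all regions did (9.29% against 6.06% on chromosome 7). These shares were not tested.

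**Figure D5:**
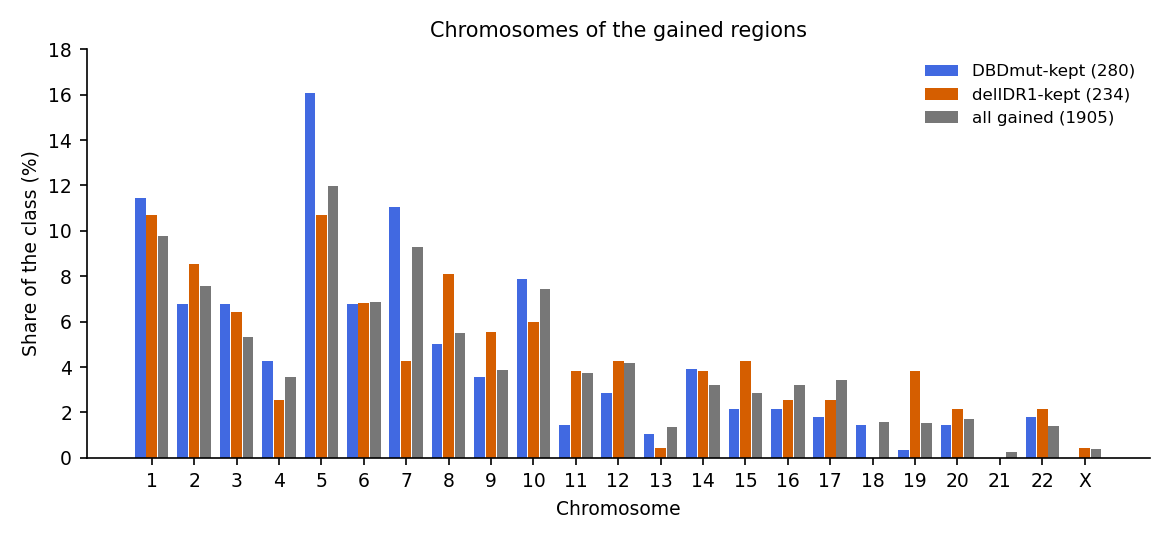
Share of each class (%) on chromosomes 1 to 22 and X for the 280 DBDmut-kept regions, the 234 delIDR1-kept regions and the 1905 gained regions. The bars of the DBDmut-kept regions reach 16.1% on chromosome 5 and 11.1% on chromosome 7 and are lowest on chromosome 19, with 1 region, and on chromosomes 21 and X, with none.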

How the data were processed

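The authors deposited 1 broad peak list per library. The submitters' processing notes name build hg19 and MACS2, SAMtools 0.1.19, Picard 2.8.0, Bowtie2 and bcl2fastq, without options; the handling of cut sites is not given in the sources used here. Each deposited peak has a score, a fold enrichment (a ratio to the caller's background), and a −log10 p-value and −log10 q-value. The deposited lists hold no counts, so depth is unknown.

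Lists were ranked by −log10 p-value; a call needed an overlap of 1 bp. Calls were computed with Python 3.11.15, NumPy 2.4.6 and pandas 2.3.3, after a test on simulated data. Tests were exact or used 100000 permutations, with Benjamini-Hochberg adjustment; intervals are 95% Wilson intervals. Regions named are the 10 best by wild-type rank, those absent from whole ARID1A.delIDR1 lists, those called by most and fewest libraries outside the rule, and the edges of the rule. Members and classes were chosen with earlier results of these data known. Gene annotation, sequence and cell-type markers were not analysed here, as no hg19 genome was used. Replicate numbers match runs A and B and do not otherwise mark a shared source.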

Additional observations from a re-analysis of the deposited data

How the results depend on the processing

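The number of DBDmut-kept regions, 280 here, was 3803 with whole lists, 42 with the 9716 strongest peaks of each list, and 177 both when neither ARID1A.delIDR1 library was allowed to call a region and when peaks needed a −log10 q-value of 5; without single libraries it ran from 224 to 377. The held-out difference of 56.7 points was 47.2 with those 9716 peaks and 40.9 with ranking by fold. It was 57.4 ± 19.6 with a 50% overlap and 51.7 ± 37.6 with whole lists (SD, n = 2 directions). It was 53.9 to 56.7 without single libraries, most of which left it unchanged. It had no value without an ARID1A.DBDmut or ARID1A.delIDR1 library, so this range says nothing of the libraries that set it. The mean share over constructs outside the rule, 28.9%, was 25.9% with a 50% overlap, 30.8% with ranking by fold, 32.1% without both ARID1A.CBR libraries and 35.1% without the 10 libraries of disagreeing labels (28.1% to 30.2% without single libraries). The mean class difference of -1.21 points turned positive with the q-value of 5 (0.843), with neither ARID1A.delIDR1 call (0.734), with ranking by fold (0.570), with whole lists (0.00229) and without ARID1A.CBR (1.38), and was 0.251 without ARID1A.DBDmut replicate 2 and 0.439 without ARID1A.delIDR1 replicate 1 (range -1.72 to 0.439); the cause was not tested. With a replicate block the permutation p of the mean class difference was 0.555, and that of the spread between constructs was 0.00048 (adjusted 0.00144). The block changed no call. Outside ARID1A.CBR the replicate numbers mark no shared source, so the block cannot account for runs. Without the 10 libraries F was 20932 but no longer passed (exact p = 0.0667, adjusted p = 0.2), since 6 libraries remained; without single libraries F ran from 1017 to 7692. The contrast of ARID1B deletions with ARID1A variants passed with ranking by fold alone (54.7 points, p = 0.0286, adjusted p = 0.0429, exact permutation test; 49.8 to 54.8 points without single libraries), and so did that of class differences (9.21 points, p = 0.0286, adjusted p = 0.0381, exact permutation test; 7.92 to 11.4), which was 4.87 points without ARID1A.CBR. Regions in no whole ARID1A.delIDR1 list numbered 0 of 177 with the q-value of 5, 0 of 42 with those 9716 peaks and 34 of 335 with ranking by fold. With whole lists they numbered 2012 of 3803, where the rule itself asks for a missing ARID1A.delIDR1 peak. The range was 4 to 9 without single libraries, with 9 without ARID1A.delIDR1 replicate 2. The same share of all gained regions was not counted under these settings. The ARID1A.CBR class difference stayed below 0 in all of these: -24.3 with the q-value of 5, -14.4 with a 50% overlap, -17.7 with neither ARID1A.delIDR1 call, -13.8 across runs, -34.2 with those 9716 peaks, -15.5 with ranking by fold, -21.2 with whole lists, -22.0 without the 10 libraries, and -22.4 to -14.8 without single libraries. Of the shares of single constructs, 228 stayed within the spread and 70 moved; of the counts of named regions, 398 stayed and 134 moved. The runs without the 10 libraries and without ARID1A.CBR, the contrast of class differences and the held-out ARID1A.CBR value were added after seeing the data.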
